A study of Brassica juncea with 4 samples.

Results

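miR858 is a conserved plant miRNA that pairs with the mRNAs of R2R3 MYB transcription factors. It was examined here in floral buds of cytoplasmic male-sterile (CMS) and maintainer fertile (MF) Brassica juncea. The CMS line carries a foreign cytoplasm, introduced by crossing with Brassica rapa as the cytoplasm donor and kept by repeated backcrossing to the nuclear background of the MF line, which is fertile. Both lines were sampled as floral buds of flowering plants grown under long days, without further treatment, and the buds of several plants were pooled into 1 library per line for each of 2 assays, small RNA and degradome sequencing. No value below therefore has a replicate, and a test on reads compares the 2 libraries, not the 2 lines. The members were every small RNA entry of the miR858 number, from any arm, and every gene listed as cut by them: 4 of 248 distinct small RNA sequences and 12 of 446 genes. The set was chosen by its cleavage reads, because the genes were found in the MF degradome alone, so the listing and the reads at the sites are given as a description with no test.

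Plant miRNAs are loaded into an ARGONAUTE protein and pair almost fully with a target mRNA, which is then cut opposite bases 10 and 11 of the miRNA. The 3′ piece of a cut mRNA keeps a free 5′ end, and degradome sequencing reads such ends, so that a read starting at the predicted position is a sign of a cut there. In Arabidopsis, miR858 is known for acting on MYB11, MYB12 and MYB111, activators of flavonol synthesis, and on other R2R3 MYB genes. Flavonols accumulate in anthers and pollen, and several MYB genes act in the tapetum, the anther cell layer that feeds the developing pollen.

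The 4 sequences are shown because their offsets and lengths decide which sites can be told apart. They are given 5′ to 3′ as deposited, as DNA letters, with the seed (bases 2 to 8) in capitals.

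miR858: tTTCGTTGtctgttcgacctt
miR858b: tTCGTTGTctgttcgaccttg
other arm of MIR858: tACATGGTttatcgattaagtag
other arm of MIR858b: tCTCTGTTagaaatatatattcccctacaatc

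miR858 and miR858b are both 21 nt long and share 20 bases, miR858b starting 1 base later, so that their seeds are offset by 1 base and are not the same. The other 2 entries had neither seed. The entry from the other arm of MIR858, 23 nt long, differed from the Arabidopsis hairpin at 5 bases. The name of the 32 nt entry from MIR858b records 11 changes, substitutions and a gap. In the Arabidopsis genome (TAIR10, positions as deposited) the hairpin of miR858 lies on the minus strand at chr1:26773539-26773725 and that of miR858b on the plus strand at chr1:26772633-26772935, with 603 bases between them. miR858 is the 5′ arm of its hairpin and miR858b the 3′ arm of the other. The hairpin of miR858 is printed below with miR858 and the opposite arm in capitals, since it shows the arm from which the opposite-arm entry differs.

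MIR858 hairpin: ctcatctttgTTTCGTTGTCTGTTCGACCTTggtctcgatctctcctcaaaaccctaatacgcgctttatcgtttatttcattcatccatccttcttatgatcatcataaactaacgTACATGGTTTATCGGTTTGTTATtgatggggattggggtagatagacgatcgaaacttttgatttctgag

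Depth differed between the libraries. The CMS small RNA library held 3192676 mappable reads and the MF library 7331757, and their 248 distinct miRNA sequences took 105033 reads in CMS and 90880 in MF. The degradome libraries held 4967302 reads mapped to Arabidopsis cDNA in CMS and 7717843 in MF, so that the CMS degradome had 64.4% of the MF depth. Reads were matched to Arabidopsis, not to B. juncea, in both assays.

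miR858 was one of the abundant miRNAs of these buds and was at nearly the same level in both libraries on the deposited scale. It had 1246 raw reads in CMS buds, against 1602 in MF buds. The deposited normalized values were 1390 in CMS and 1435 in MF, a log2 ratio of -0.05 with a 95% interval of -0.15 to 0.06. miR858 ranked 8th of the distinct sequences in CMS and 9th in MF. It was not called different (two-sided Fisher's exact test on the normalized values, p = 0.407), while 35 of the 248 distinct sequences, 14.1%, were called by the same rule, 13 (5.24%) higher and 22 (8.87%) lower in CMS. The intervals here cover counting error only, because there was no replicate. Reads copied by PCR are not independent molecules, so the intervals may be too narrow even for that error.

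miR858b was far scarcer. It had 39 raw reads in CMS buds and 38 in MF buds, or 43 and 34 after the deposited normalization in CMS and MF. The log2 ratio was 0.35, with an interval of -0.33 to 1.04 that spans no change and a doubling (two-sided Fisher's exact p = 0.362). Of the reads of both miRNAs together, miR858b made up 3.04% in CMS (exact Clopper-Pearson 95% interval 2.17% to 4.13%), against 2.32% in MF (1.64% to 3.17%), a share that needs no scaling between libraries and whose intervals overlapped. With both miRNAs summed, 1285 reads in CMS stood against 1640 in MF, a log2 ratio of -0.04 (-0.14 to 0.07).

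The opposite arms were at the limit of detection. Each had 0 reads in CMS and 3 in MF. For MIR858 the opposite arm made up 0.187% of the reads of both arms in MF (exact interval 0.0386% to 0.545%), and a count of 0 in CMS allows up to 0.241% of the miR858 reads there. A difference between the libraries was therefore not detectable at this depth.

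**Figure D1:**
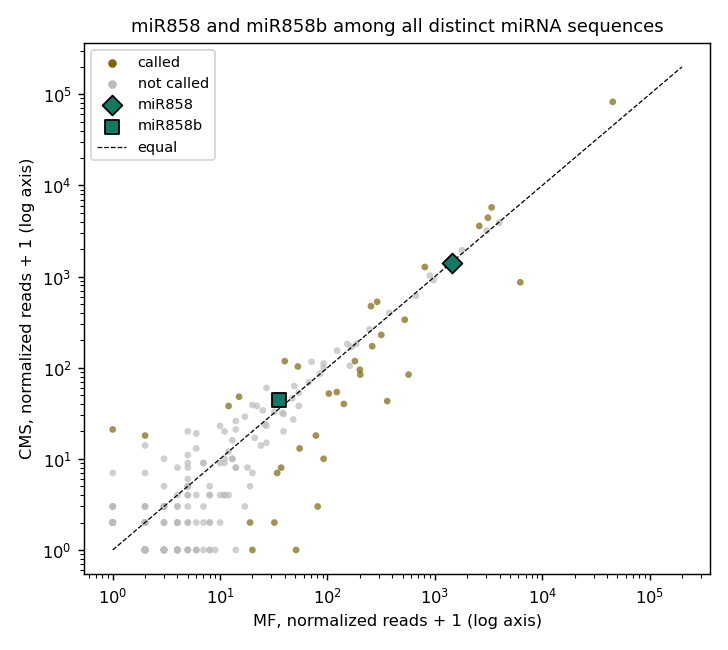
Each point is 1 of the 248 distinct miRNA sequences, with its deposited normalized value plus 1 in CMS buds on the vertical axis and in MF buds on the horizontal axis, both logarithmic, and the dashed line marks equal values. miR858 (1390 in CMS, 1435 in MF) and miR858b (43 in CMS, 34 in MF) lie close to the line. The 35 called sequences, in dark yellow, are not set apart by distance from the line alone. For example, ath-miR166a was called at a log2 ratio of 0.47, and ath-MIR157a-p3, with few reads, was not called at 2.90.

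Both the direction and the call depended on how the libraries were made comparable. miR858 was called higher in CMS when scaled by mappable or by raw reads, and lower in CMS when scaled by total miRNA reads. In reads per 1000000 mappable reads (RPM) miR858 was at 390 in CMS, against 219 in MF, a log2 ratio of 0.84. As a share of all miRNA reads it was at 1.19% in CMS (exact interval 1.12% to 1.25%) and at 1.76% in MF (1.68% to 1.85%), a log2 ratio of -0.57. miR319a, the most abundant miRNA, took 70.5% of the miRNA reads in CMS and 55.7% in MF, and with it left out the shares were 4.02% in CMS (3.80% to 4.24%) and 3.98% in MF (3.79% to 4.17%), which overlap.

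The order of the CMS over MF ratios among miRNAs does not move with the scale. Of the 153 distinct sequences read in both libraries, 76 had a higher ratio than miR858 and 76 a lower one, so that miR858 was itself the median sequence. miR858b stood higher in that order, with 37 sequences above it and 115 below. Among the 44 sequences with at least 100 reads over both libraries, whose log2 ratios ran between -3.36 and 1.57, miR858 was the 27th from the top. The sequences with the ratio most like that of miR858, over the 2 libraries, were ath-miR170_1ss3AT, a 1-base variant of miR170 (162 reads in CMS, 207 in MF, log2 ratio -0.04), ath-miR160a (3493 reads in CMS, 4440 in MF, -0.03) and aly-miR845a (47 reads in CMS, 59 in MF, -0.01). The last is the entry matched to Arabidopsis lyrata, and the separate sequence ath-miR845a was called lower in CMS (48 reads in CMS, 135 in MF, log2 ratio -1.18).

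**Figure D2:**
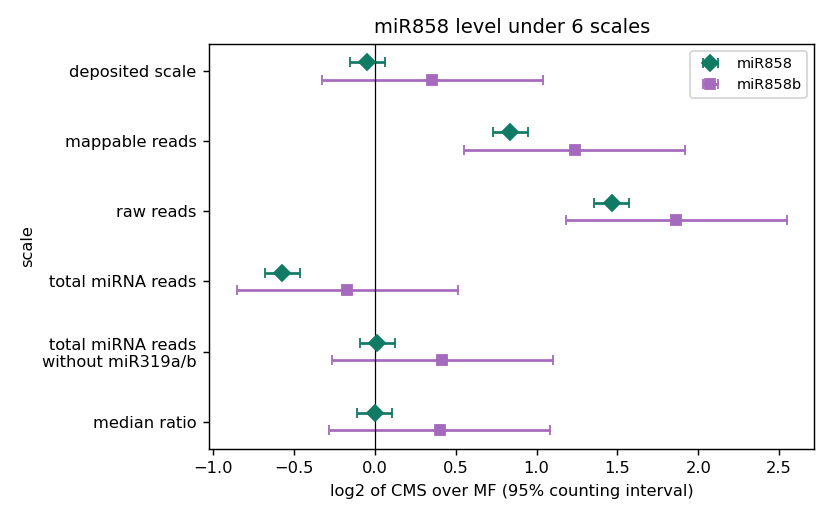
The log2 ratio of CMS over MF is plotted for miR858 (diamonds) and miR858b (squares) under 6 ways to scale the libraries, with bars for the 95% counting interval. For miR858 the ratio ran between -0.57 under total miRNA reads and 1.46 under raw reads, and the deposited scale and the total without miR319a/b gave intervals that include 0. The median ratio gives miR858 a value of 0 by construction, since miR858 is the median sequence.

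In the degradome, the CMS and MF libraries differed in the listing. No gene was listed as cut by miR858 or miR858b in CMS buds, and 12 genes at 16 gene and site pairs were listed in MF buds. All 12 were annotated as MYB genes. Across all miRNAs, 44.6% of the 446 genes were listed in MF and not in CMS, and 24.9% in CMS and not in MF. None of the 12 was listed for any other miRNA in either library.

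CleaveLand lists a site where a read starts opposite base 10 of the aligned miRNA, and the 16 listed positions lay between nt 300 and nt 605 of their transcripts. Whether these places are in coding sequence was not analysed here. 4 genes, MYB11, MYB12, MYB42 and MYB111, were listed for both miRNAs, and in each the site of miR858 lay 1 nt after that of miR858b, which follows from the 1-base offset between the miRNA sequences printed above.

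The 3 flavonol activators had no listed site in CMS and held 11 of the 23 site reads in MF. A read that matched several transcripts was counted in full at each, so these 11 cannot be taken as separate reads. After division by the transcripts hit, MYB11 and MYB12 each had 0.575 of a read in MF, and MYB111 had 0.325. MYB12 (AT2G47460, chr2:19476337-19479478) had 0 reads in CMS and 2 reads in MF at nt 401, the site of miR858b, and likewise 0 in CMS and 2 in MF at nt 402, the site of miR858. MYB11 (AT3G62610, chr3:23154758-23156585) had 0 in CMS and 2 in MF at nt 300 for miR858b, and 0 in CMS and 2 in MF at nt 301 for miR858. MYB111 (AT5G49330, chr5:19998952-20001378) had 0 in CMS and 2 in MF at nt 385 for miR858b, and 0 in CMS and 1 in MF at nt 386 for miR858. All 3 were thus unlisted in CMS and at 1 or 2 reads in MF at each site. The closest pairing of the set was that of miR858b with MYB12, with an alignment score of 2.5, on which lower means fewer mismatches, against scores of 3 to 4 at the other pairs.

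MYB42 (AT4G12350, chr4:7324912-7326636), a regulator of secondary wall and lignin genes, was the other gene with both sites, with 0 reads in CMS and 2 in MF at nt 301 for miR858, and 0 in CMS and 1 in MF at nt 300 for miR858b. MYB84 (AT3G49690, chr3:18427735-18429201), also called RAX3 and acting in axillary meristems, had 0 in CMS and 2 in MF at nt 509 for miR858b. The related RAX1, MYB37 (AT5G23000, chr5:7696135-7697927), had 0 in CMS and 1 in MF at nt 402. None of these 3 genes was listed in CMS at any of these sites.

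3 of the remaining genes have known roles in flowers. MYB99 (AT5G62320, chr5:25028716-25029933), a tapetal gene in Arabidopsis, had 0 reads in CMS and 1 in MF at nt 471 for miR858b. MYB120 (AT5G55020, chr5:22324599-22326248), which acts in the pollen tube, had 0 in CMS and 1 in MF at nt 342 for miR858b. MYB17 (AT3G61250, chr3:22671002-22672738), which acts in floral meristem identity, was the gene listed for miR858 alone, with 0 in CMS and 1 in MF at nt 605. In bulk buds, fewer cells of a type and less RNA per cell cannot be told apart.

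The last 3 genes, MYB6 (AT4G09460), MYB19 (AT5G52260) and MYB305 (AT3G24310, also annotated as ATMYB71), each had 0 reads in CMS and 1 in MF at a miR858b site, at nt 353, nt 300 and nt 352 of their transcripts. In all, miR858b had 11 genes in MF with 15 site reads and miR858 had 5 genes with 8. These counts hold shared reads, each counted in full at every transcript it matched. After division by the transcripts hit, the MF sums were 1.7 reads for miR858b and 1.26 for miR858.

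**Figure D3:**
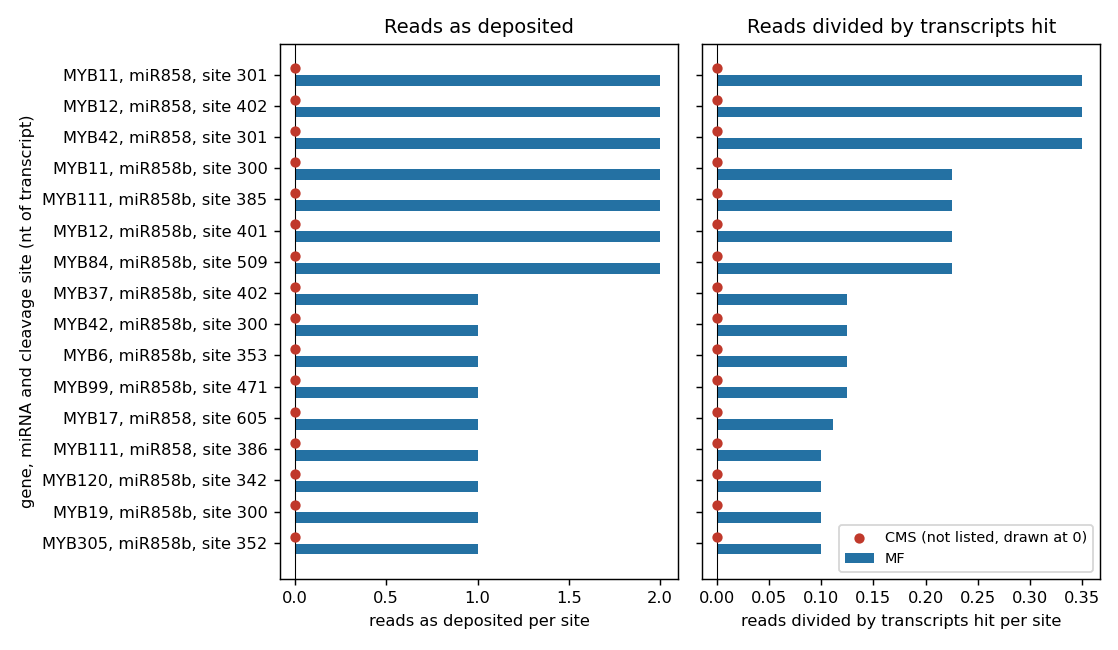
Each line is 1 of the 16 gene and site pairs, with the reads as deposited in the left panel and the reads divided by the number of transcripts they hit in the right panel. CMS points are drawn at 0 because no pair was listed there, and MF bars reach 1 or 2 reads as deposited but only 0.1 to 0.35 of a read after the division.

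The categories of the sites were low. CleaveLand, the program used by the authors, sorts sites from category 0, where the reads at the site are the single highest peak of the transcript, to category 4, where there is 1 read. Of the 16 pairs in MF, 0 were in category 0 or 1, 2 were in category 2 (MYB11 and MYB42 for miR858, above the median of the transcript), 5 in category 3 (at or below that median) and 9 in category 4. Of all pairs listed for any miRNA, 16.8% in CMS and 10.3% in MF were in category 0 or 1. The deposited CleaveLand p-values of the members ran between 0.0166 and 0.453, and those of miR858b at MYB12 (0.0166) and at MYB111 (0.0369) were under 0.05.

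The 23 reads of the 16 pairs cannot be taken as 23 separate molecules. A read that matches several transcripts was counted in full at each, and the deposited tables give beside it a second value in which every read is divided by the number of transcripts it hits. These divided values summed to 0 in CMS and 2.96 reads in MF. Sites with a single read had 0.1, 0.111 or 0.125 of a read, that is, a read that hit 10, 9 or 8 transcripts. The sites with 2 reads had 0.225 of a read at miR858b sites, equal to 1/8 + 1/10, or 0.35 at miR858 sites, equal to 1/4 + 1/10, although 1/5 + 1/40 and 1/3 + 1/60 give the same sums.

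Read this way, the sites held reads of 5 kinds. For miR858b, a read that hit 8 transcripts lay at 8 listed genes (MYB6, MYB11, MYB12, MYB37, MYB42, MYB84, MYB99 and MYB111), the number that 1 read with that divisor fills. A read that hit 10 transcripts lay at 7 (MYB11, MYB12, MYB19, MYB84, MYB111, MYB120 and MYB305). For miR858, a read that hit 4 transcripts lay at 3 genes (MYB11, MYB12 and MYB42), one that hit 10 lay at 4 (those 3 and MYB111), and one that hit 9 lay at MYB17 alone. 5 reads, 1 of each kind, would thus give all 16 pairs, and the 12 genes cannot be counted as 12 separate cuts. Which of the MYB genes, or which B. juncea copy of them, a read came from cannot be told from these tables.

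**Figure D4:**
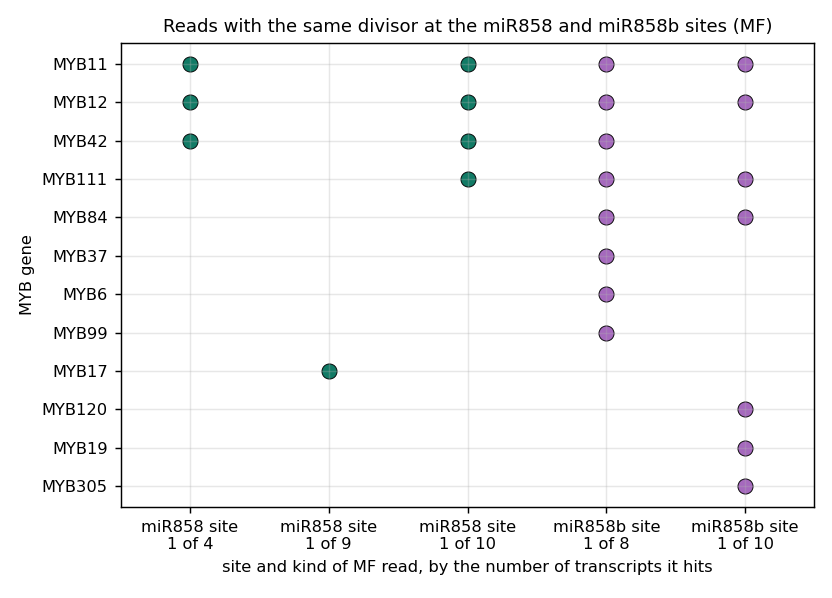
Each dot marks a MYB gene (rows) whose MF site held a read of the kind given by the column, named by the miRNA of the site and by the number of transcripts that such a read hits. The column of miR858b reads that hit 8 transcripts has 8 dots and the column of those that hit 10 has 7, so that most genes share their kind of read with others, while the read that hit 9 transcripts lies at MYB17 alone.

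The depth of the CMS library limits what its list can show at a single site. A count of 0 in CMS allows up to 3 counts, or 0.604 reads per 1000000 mapped reads (RPM), while a site with 2 reads in MF had 0.259 RPM and one with 1 read 0.130 RPM. Every single site in MF was below that limit, so no fold is given per gene. Summed over the 16 pairs as deposited, 0 reads in CMS stood against 23 in MF, or 2.98 RPM. With 3 counts over the summed sites in place of 0, the ratio of CMS over MF would be 0.203, but this treats the 23 reads as separate. The sites were also chosen by their MF reads, so the ratio is a description and not a test. With each read divided over its transcripts, the MF sum was 0.384 RPM, below the CMS limit, and no fold can be given. Sites with few reads were often listed in a single library for other genes too: of 285 pairs of other genes with 1 or 2 reads in MF, 210 (73.7%) were not listed in CMS, and of the 200 whose reads came to less than 1 after the division, 146 (73%) were not.

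The rest of the MYB and flavonoid genes were followed through lists of known genes. All 3 of the flavonol MYB genes were listed in MF and 0 of 3 in CMS, but these 3 may share reads and cannot be counted as separate cuts. Of 8 other MYB genes reported or predicted as miR858 targets in Arabidopsis, 0 were listed in CMS and 2 in MF (MYB42 and MYB84). The anthocyanin MYB genes, which in Arabidopsis are targets of miR828 and of the small RNAs it triggers, had 0 of 4 listed in either library, and of 7 enzymes of the flavonoid pathway 0 were listed in either. These counts stand against 446 genes listed for any miRNA, 247 of them in CMS and 335 in MF.

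Of a list of 8 GAMYB-like genes, targets of miR159 in Arabidopsis, 2 were listed in CMS and 3 in MF. MYB65 had 20 reads in CMS, against 5 in MF, in category 0 in both, and MYB33 had 10 reads in CMS (category 1), against 1 in MF (category 4). MYB120 was the third in MF, and it was listed at the miR858b site. In all, 2 genes with a MYB annotation were listed in CMS and 16 in MF, both of the CMS genes being in MF as well. Across all miRNAs, 247 genes were listed in CMS and 335 in MF. Of the 16 MYB genes in MF, 12 were those of miR858, which cannot be counted as separate cuts. The 2 MF genes outside the miR858 set and the GAMYB-like list were MYB47 and AT3G24490. MYB47 had 1 read for the candidate PC-3p-65, and AT3G24490, a Myb/SANT-like gene, had 3 reads for an entry of miR414.

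Other abundant families were listed in both libraries. By raw reads over both libraries the family of miR858 was the 8th of 58 numbered families, and it was 1 of 13 with at least 1000 reads, of which 9 had listed genes. miR858 was the only one of the 9 with no listed gene in CMS. The other 8 all had more divided reads at their sites in CMS than in MF, for example 3.52 RPM in CMS against 0.615 RPM in MF for miR159 and 3.03 RPM in CMS against 0.358 RPM in MF for miR165. Some of these families share sites (miR165 with miR166, miR159 with miR319), so the 8 are not independent. Summed over all listed pairs of any miRNA, these families included, CMS also had more reads as deposited. The sums were 5985 reads in CMS and 5114 in MF, with the CMS depth at 64.4% of that of MF. The divided reads of miR858 in MF, 0.384 RPM, were close to that of miR165 and miR166 there, and these were also the 2 other abundant families with no site of category 0 or 1 in either library.

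**Figure D5:**
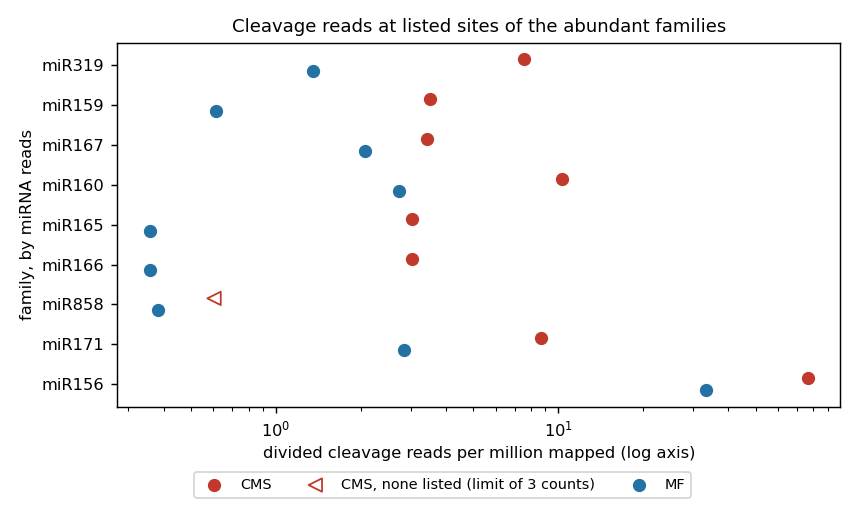
The reads at listed sites, divided by the transcripts they hit and given per 1000000 mapped degradome reads (RPM) on a logarithmic axis, are plotted for the 9 families with at least 1000 miRNA reads and listed genes, with CMS above MF in each line. CMS lies to the right of MF in the 8 other families, while for miR858 no gene was listed in CMS and the open triangle marks the limit of 3 counts, 0.604 RPM, which lies above the MF value of 0.384 RPM.

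Of the 32 numbered families with listed genes, 4 were listed in MF alone and 1 in CMS alone. The other families listed in MF alone had at most 3 genes, against 12 for miR858, and 4 families had more listed genes than miR858 in MF. At the sites of these other families, which had 0 reads in CMS, the MF reads were 2 as deposited and 2 after the division for miR1511, 3 and 2 for miR5139, and 1 and 0.5 for miR3630, against 23 and 2.96 for miR858.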

How the data were processed

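Small RNA and degradome libraries of floral buds, 4 in all, were assigned to CMS and MF by their deposited labels. The authors removed adapters, compared small RNA reads with miRBase 18.0 and Arabidopsis (TAIR10), and deposited a count of raw reads and a normalized value per miRNA, rounded to whole numbers (a score, not a read count). Its factor is not given in the sources used here and was recovered from the most abundant miRNA (1.12 in CMS, 0.896 in MF). Degradome reads were placed by the authors on Arabidopsis cDNA and run through CleaveLand, which gave the deposited values per site, a count of reads, an alignment score, a category, a p-value, and a signal, the reads divided by the transcripts hit.

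Identical sequences were joined (288 entries, 248 sequences). A sequence was called different when the Audic-Claverie point probability was under 0.01 divided by 248 and Fisher's exact and the chi-squared test were under 0.01, on the deposited normalized values with totals of 1000000. Ratios used raw reads and the factors, with exact conditional binomial 95% intervals. A gene was a MYB gene when its deposited annotation held a word starting with myb or ATMYB. All members were named, with the 3 sequences of at least 100 reads nearest in ratio to miR858. The members and lists were chosen with earlier results of these data known. With 1 library per line no count model was fitted. Scales, filters and ways of counting sites were varied, and the calling was tested on simulated data. Python 3.11.15, scipy 1.17.1 and pandas 2.3.3 were used. Genome sequence around the target sites was not analysed here.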

Additional observations from a re-analysis of the deposited data

How the results depend on the processing

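The scale decided the direction of miR858: its log2 CMS over MF ratio was 0.84 by mappable reads and 1.46 by raw reads (both called), 0.016 by total miRNA reads without miR319a/b and -0.57 by total miRNA reads (called). miR858b gave 1.24 by mappable and 1.86 by raw reads (both called) and -0.17 by total miRNA reads. Its call by mappable reads only just passed, with an Audic-Claverie probability of 3.98e-05 against a limit of 4.03e-05. miR858 and miR858b together gave 0.85, 1.47 and -0.56 by mappable, raw and total miRNA reads. Of all sequences, 22 in place of 35 were called with a minimum change of 2-fold. By mappable reads 49 were called, 39 higher and 10 lower in CMS, against 13 higher and 22 lower on the deposited scale. In MF, the genes listed, all MYB genes, numbered 12, and 5 without category 4, 2 at a CleaveLand p under 0.05 and 5 for miR858 alone. In CMS the number was 0 under every one of these settings, which was fixed in advance because no pair was listed there. With 3 counts in place of 0 in CMS, the ratio of CMS over MF for the site reads was 0.203. It was 0.333 without category 4, 0.274 with adjacent sites joined and 1.57 with reads divided by the transcripts they hit. The sites were chosen by their MF reads, so none of these ratios tests a difference. No paired analysis was possible because each line had 1 library per assay. Depth (3 counts in CMS, 0.604 RPM) limits every single site, reads were matched to Arabidopsis rather than to B. juncea, and no spread between plants was measured.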
